A study of Mus musculus with 2 samples.

Results

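Committed oligodendrocyte precursors were picked out of single-cell RNA sequencing of mouse neural stem cell cultures as cells with at least 1 unique molecular identifier (UMI, a tag counted once per captured RNA molecule) of Gpr17, Bcas1 or Enpp6 and at least 1 UMI of the lineage factors Olig1, Olig2 or Sox10. A cell also needed at least 500 detected genes, at most 10% mitochondrial UMIs and fewer than 10 collagen UMIs (Col1a1, Col1a2 and Col3a1 summed). Of 13278 kept cells, 284 met these conditions, or 2.14% (exact Clopper-Pearson 95% interval 1.90 to 2.40%), and they made up 16.7% of the 1697 kept cells with a lineage factor UMI. The cultures held neural stem cells taken from the subventricular zone of postnatal C57/Bl6J mice. One library was labelled as treated with 1 µM of the oxysterol 20HC and the other as the vehicle control, DMSO, and both were taken 3 days after EGF and FGF were removed. The treatment text of the control library also mentions 20HC, so its group rests on its title. All cells came as a single pooled matrix in which a barcode ends in 1 or 2, with no label or file that ties a number to a library. No cell was therefore given a condition, no 20HC against DMSO comparison was made, and values of barcode set 1 and barcode set 2 stand side by side without one.

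Oligodendrocyte precursors first carry the growth factor receptor Pdgfra and the proteoglycan Cspg4 (NG2), divide, and can persist in that state. On the way to a myelinating oligodendrocyte they pass through a short intermediate stage marked by Gpr17, a membrane receptor that is on only in this interval, by Bcas1, a protein of cells starting to myelinate, and by Enpp6, an enzyme of newly forming oligodendrocytes. Growth factor removal is the usual trigger that lets cultured neural stem cells leave the stem state and turn into glia and neurons. The subventricular zone is a source of such oligodendrocyte lineage cells around birth and after it.

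Other groups served for comparison. Early precursors were the 129 cells that had a lineage factor UMI and a Pdgfra or Cspg4 UMI but none of Gpr17, Bcas1 or Enpp6. Primed Olig-positive cells were the 1284 cells with a lineage factor UMI and none of those 5 precursor genes. The third group was all 12994 other kept cells, which contains both of these. As all 3 comparisons use the same committed precursors, and the last contains the others, their values are set side by side and not correlated.

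The matrix held 41462326 UMIs over 28692 genes and 14685 barcodes, of which 1407 were left out by the cell filter. A median committed precursor had 3498.5 UMIs (range 683 to 9997) and 1598.5 detected genes, against medians of 3457 UMIs in early precursors, 3189.5 in primed cells and 2845 in other cells. Summed, committed precursors gave 1055474 UMIs, early precursors 471557, primed cells 4294182 and other cells 38354853. Scrublet called 7 of the 189 committed precursors of set 1 and 0 of the 95 of set 2 doublets. It marked 2.42% of all cells of set 1 and 0.323% of set 2, against 7.90% and 2.73% expected, so its calls in set 2 were not relied on and all members were kept. The sets shared 48 barcode sequences, 1 of them a committed precursor's, and no sequence was a committed precursor in both. With 1 pooled sample there is no replicate check and no test. Levels are CPM (a gene's UMIs scaled to 1e+06 summed UMIs of its group) with exact Poisson 95% intervals, and all intervals cover counting error only.

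The committed label rests on few molecules per cell. Only 1 UMI of the committed genes was seen in 170 of the 284 cells (59.9%), 2 were seen in 63, 3 in 23 and 4 or more in 28, with a maximum of 22. Exactly 1 committed and 1 lineage factor UMI was all that 86 cells (30.3%) had, while 76 cells (26.8%) had at least 2 of each. Near the other limits, the fewest detected genes in a member were 508, the highest mitochondrial share was 9.95% and the most collagen UMIs were 1, in 4 cells. Just outside, 2 barcodes with 1 UMI of each kind were left out at 13.5% and 19.5% mitochondrial UMIs, and 1 kept cell was left out at 15 collagen UMIs.

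Shares of cells with a committed gene were set out by lineage factor count, as a description of the gate's own genes. Any committed gene was seen in 57.3% of the 89 cells with 4 or more lineage factor UMIs (46.4 to 67.7%), in 38.0% of the 108 with 3, in 24.8% of the 274 with 2, in 10.1% of the 1226 with 1 and in 1.99% of the 11393 with none, all under 10 collagen UMIs. Gpr17 was seen in 34.8% of cells at 4 or more lineage factor UMIs and in 0.342% at none, and Bcas1 in 38.2% and 1.64%. Depth moved along the same scale, with median UMIs of 3662 at 4 or more and 2784 at none. With each cell thinned to 2000 UMIs the shares of cells with a committed gene were 39.1% at 4 or more (of 23 cells), 40.0% at 3, 23.3% at 2, 9.81% at 1 and 1.72% at none. The same order up to 3 lineage factor UMIs was seen at equal depth. As these genes chose the members, the shares describe the gate and are no independent support for the label.

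**Figure D1:**
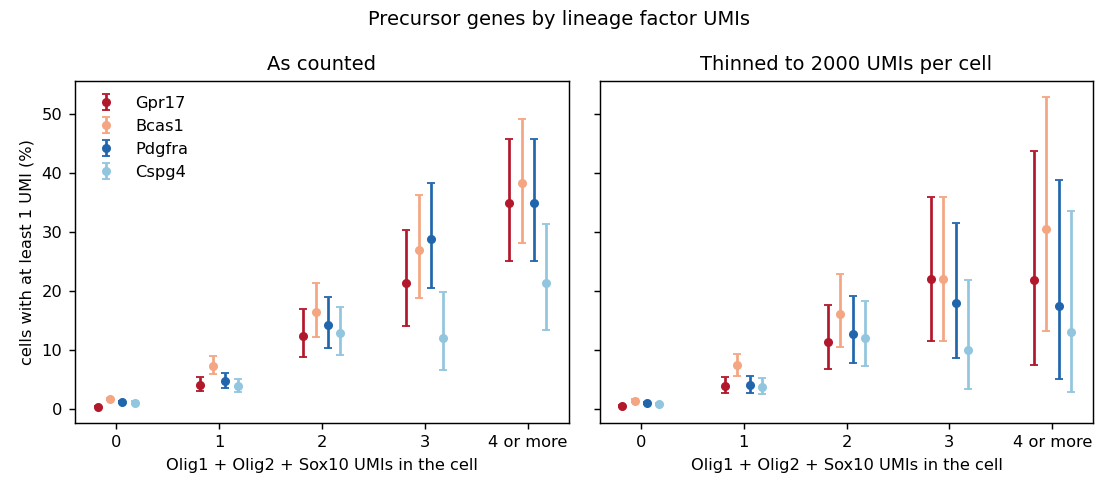
Share of cells (y axis, %) with at least 1 UMI of Gpr17, Bcas1, Pdgfra or Cspg4 by the number of Olig1, Olig2 and Sox10 UMIs in the cell (x axis), as counted on the left and with each cell thinned to 2000 UMIs on the right. Points are shares and bars exact Clopper-Pearson 95% intervals; as counted, the 4 genes lie between 0.342% and 1.64% at no lineage factor UMI and between 21.3% and 38.2% at 4 or more.

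Cells of other types that should lack these genes gave the background. Among cells without a lineage factor UMI, a committed gene was seen in 1.16% of 952 Dlx-rich neuroblasts (median 2821 UMIs), 1.67% of 180 collagen-rich cells (median 4383 UMIs) and 1.46% of 1992 Gfap-rich cells (median 3362 UMIs). The 10.1% seen in cells with 1 lineage factor UMI lay above these shares, at a median of 3187.5 UMIs. This too describes the gate's own genes and is no test of the label. Part of the 86 cells with 1 UMI of each kind can still be background, and results that differ between them and the 76 cells with at least 2 of each are given with both values further on. All 7 members called doublets had 1 committed UMI, and 5 of them were among the 86 cells, against 0 of the 76.

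Bcas1 was the commonest of the 3 committed genes. It was seen in 197 of the 284 cells (69.4%), Gpr17 in 138 (48.6%) and Enpp6 in 10 (3.52%). Bcas1 alone defined 143 cells, Gpr17 alone 83 and Enpp6 alone 1, while 52 cells had both Gpr17 and Bcas1, 4 of them with Enpp6 too. These shares are those of a gate that asked for any of the 3 genes and describe the gate, not a finding.

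The levels of the gate's own genes, which carry no test, were high in both barcode sets. Gpr17 stood at 208 CPM in set 1 and 278 CPM in set 2 in committed precursors, 229 CPM over both (201 to 260), against 1.46 CPM in all other kept cells. Bcas1 stood at 283 and 319 CPM by set, 294 CPM over both, against 5.37 CPM in all other kept cells. Enpp6 stood at 16.3 and 18.7 CPM, 17.1 CPM over both, against 0.339 CPM. Early precursors and primed cells have 0 UMIs of all 3 by construction. Gpr17 (mm10, chr18:31942997-31949636, minus strand) lies inside Lims2, Bcas1 is at chr2:170346991-170427845 on the minus strand and overlaps antisense transcripts, and Enpp6 is at chr8:46986887-47096762 on the plus strand.

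The lineage factors of the gate, which chose the cells of all 3 groups, are given as a description. Sox10, the factor that switches on myelin genes, was at 107 CPM in committed precursors (93.8 in set 1 and 137 in set 2), 74.2 CPM in early precursors and 15.4 CPM in primed cells. Olig1 was at 369, 394 and 259 CPM in the same order and Olig2, which specifies the lineage, at 146, 121 and 104 CPM. Sox10 UMIs were found in 83 committed precursors (29.2%), and 33 of the 284 entered on Sox10 alone.

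Bmp4, Vcan, Tmem108 and Lims2, further genes of the committed precursor list, were higher in committed than in early precursors. A gene was counted as measured with at least 30 UMIs over both groups, and called higher or lower when the CPM plus 5 differed by more than 1.5-fold in the pool and each barcode set showed that direction. The gate's genes were left out of every count. Of the list's 11 measured genes, 4 were higher and 0 lower over early precursors, with a median log2 ratio of 0.35. Over all 5747 genes measured in that comparison 4.75% were higher and 6.32% lower, with a median of -0.01. Over primed cells 6 of 12 were higher (Arpc1b, Bmp4, Fyn, Lims2, Tmem108 and Vcan) and 1 lower (Tcf7l2), beside 6.94% higher and 14.2% lower of 9727 genes. Over all other kept cells 9 of 15 were higher and 0 lower, beside 5.12% higher and 11.7% lower of 13059 genes. Later counts of called list genes over all members are to be read beside these shares of all measured genes.

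Bmp4, a secreted growth factor known from the committed stage, had 44.9 CPM in set 1 and 34.4 CPM in set 2 in committed precursors, 41.7 CPM over both (30.3 to 56.0). It had 0 and 6.23 CPM by set in early precursors, a single UMI, and 1.63 CPM in primed cells. The CPM ratio of committed to early precursors was 19.7, with a counting interval of 3.35 to 794. Bmp4 was carried by few cells: 26 of the 284 committed precursors had a Bmp4 UMI, 18 of them with Gpr17 and 6 with Pdgfra or Cspg4. Collagen-rich cells of the culture also express it, and 4 of the 284 committed precursors had a collagen UMI.

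Vcan, the large matrix proteoglycan versican, had 72.1 and 116 CPM by set in committed precursors, against 51.4 and 31.2 CPM in early precursors and 37.0 CPM in primed cells. Its log2 ratio was 0.87 over early precursors and 1.10 over primed cells. Tmem108, a membrane protein, had 43.5 and 56.2 CPM by set in committed precursors, against 22.5 and 12.5 CPM in early precursors, a log2 ratio of 1.12. For both genes the committed precursors were higher in each set, as the call required.

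Lims2, an adaptor of cell-matrix adhesions, had 84.3 CPM in committed precursors (78.9 in set 1, 96.9 in set 2), 48.8 CPM in early precursors and 9.55 CPM in primed cells. As Gpr17 lies within Lims2 on the opposite strand and the sources used here do not give the strand setting of the counting, reads of the pair cannot be told apart with certainty. Lims2 UMIs were in 64 committed precursors, 42 of them with Gpr17 UMIs, and in 19 early precursors, which have none.

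Other members of the list had no call over early precursors, Neu4 because it had fewer than 30 UMIs there and could not be called. Fyn, the kinase that relays contact with axons, had 150 CPM in committed precursors (144 and 162 by set), 117 CPM in early precursors and 71.0 CPM in primed cells, with log2 ratios of 0.35 and 1.02. Neu4, a sialidase, was seen in 20 committed precursors at 22.7 CPM, against 10.6 CPM in early precursors and 0.521 CPM in all other kept cells. Tcf7l2, a Wnt effector needed for oligodendrocyte maturation, stood lower: 31.3 CPM in committed precursors, 42.4 CPM in early precursors and 51.5 CPM in primed cells (log2 ratio -0.64 over primed cells). Arpc1b, a part of the actin-branching complex, had 321, 231 and 161 CPM and was higher than in primed cells (log2 ratio 0.97). Itpr2 had 35.1, 44.5 and 34.9 CPM in the same order and met no call, and Casr had no UMI in any of these groups.

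**Figure D2:**
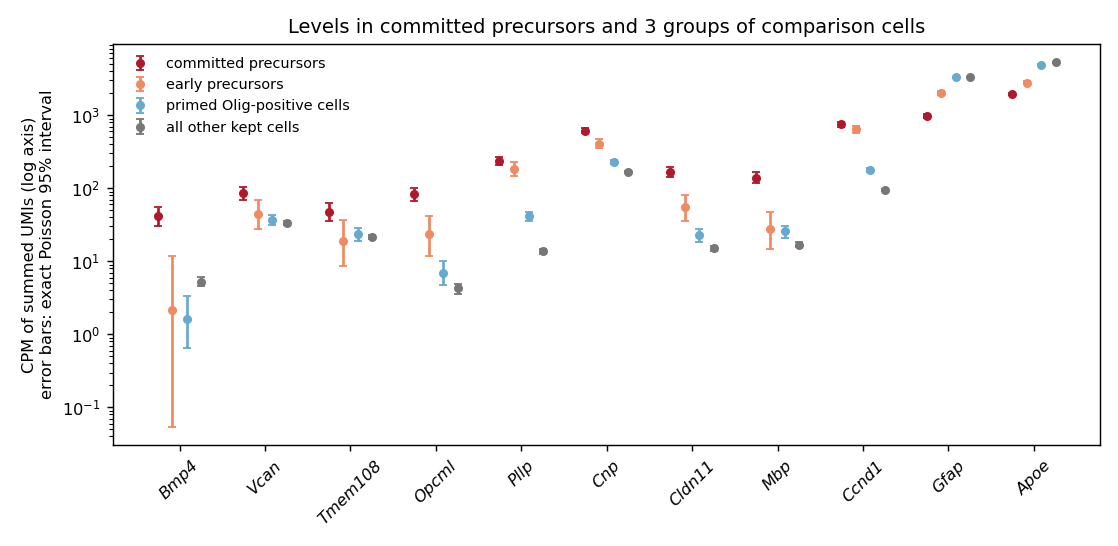
CPM of summed UMIs (y axis, log scale) of 11 genes (x axis) in committed precursors, early precursors, primed Olig-positive cells and all other kept cells, with exact Poisson 95% intervals. Bmp4, Opcml and Cldn11 are highest in committed precursors, Pllp (233 and 182 CPM) and Ccnd1 (750.4 and 643 CPM) are close in committed and early precursors, and Gfap and Apoe are lowest in committed precursors.

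Promoter sequences of 4 genes are shown as examples, 2 gate genes (Enpp6 and Olig2) and 2 genes higher in committed precursors in all 3 comparisons (Bmp4 and the myelin gene Cnp). They were picked with their motifs known, so how many of the 4 hold a motif says nothing about the group. Vcan, Cldn11 and Gjc3 were also higher in all 3 comparisons, and their windows, searched but not shown, hold none of the Sox cores. Each is the RefSeq window of GRCm38.p6 from 250 bases before the annotated start to 50 after it, 5′ to 3′ on the gene's strand; RefSeq gave no usable window for Gpr17, Bcas1 or Sox10. Capitals mark ACAAAG or ACAATG, 2 cores bound by Sox proteins, on either strand, so that CATTGT in Olig2 is ACAATG on the other one. The windows are Enpp6 at chr8:46986637-46986936 (plus strand), Olig2 at chr16:91225300-91225599 (plus), Cnp at chr11:100574689-100574988 (plus) and Bmp4 at chr14:46390620-46390919 (minus).
Enpp6: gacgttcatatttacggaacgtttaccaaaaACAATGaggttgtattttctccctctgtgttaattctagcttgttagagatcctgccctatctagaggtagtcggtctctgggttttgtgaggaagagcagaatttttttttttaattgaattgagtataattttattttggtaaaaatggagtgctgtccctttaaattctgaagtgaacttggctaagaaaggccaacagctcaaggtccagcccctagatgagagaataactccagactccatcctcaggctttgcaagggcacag
Olig2: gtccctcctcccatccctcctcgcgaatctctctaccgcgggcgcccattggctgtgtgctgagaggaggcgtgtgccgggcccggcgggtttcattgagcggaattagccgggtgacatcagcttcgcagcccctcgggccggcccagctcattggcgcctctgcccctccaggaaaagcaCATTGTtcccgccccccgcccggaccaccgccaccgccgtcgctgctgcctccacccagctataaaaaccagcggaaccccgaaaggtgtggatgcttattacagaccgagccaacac
Cnp: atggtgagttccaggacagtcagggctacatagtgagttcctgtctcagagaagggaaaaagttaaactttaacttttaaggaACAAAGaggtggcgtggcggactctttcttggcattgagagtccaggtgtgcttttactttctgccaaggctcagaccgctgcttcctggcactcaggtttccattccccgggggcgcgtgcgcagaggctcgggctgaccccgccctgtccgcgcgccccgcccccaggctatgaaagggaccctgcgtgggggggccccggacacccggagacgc
Bmp4: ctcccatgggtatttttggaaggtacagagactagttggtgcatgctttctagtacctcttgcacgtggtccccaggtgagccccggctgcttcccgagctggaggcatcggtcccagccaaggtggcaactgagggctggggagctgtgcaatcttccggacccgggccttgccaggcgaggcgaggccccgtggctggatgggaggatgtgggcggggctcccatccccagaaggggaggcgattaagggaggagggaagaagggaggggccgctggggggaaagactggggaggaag
Each motif was searched on both strands. Of the 7 windows searched, ACAAAG was found in that of Cnp only, ACAATG in those of Enpp6 and Olig2, ATTGTT in the same 2 windows, where it overlaps ACAATG, and the E-box CANNTG at 3 places in Bmp4, 2 in Gjc3 and 1 each in Cnp and Vcan. Of 32851 promoter windows of 300 bases, 18.7% hold ACAAAG, 12.6% ACAATG, 10.7% ATTGTT and 72.3% CANNTG. A match describes the letters and is neither a binding site nor a cause of the levels above.

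Myelin genes were higher in committed than in early precursors for 5 of 10 measured, among them Cldn11, Cnp, Gjc3 and Mbp, with 0 lower and a median log2 ratio of 0.61. Over primed cells 9 of 12 were higher and 0 lower, with a median of 1.86. One cell weighed heavily in these figures. It belonged to set 2, had 3321 UMIs and gave 401 UMIs of the myelin list, 12.1% of its total, among them 106 of Mbp, 27 of Mobp, 15 of Mag and 9 of Mog. The next 4 cells had 77, 69, 56 and 53. It carried Enpp6 (3 UMIs) and Bcas1 (1 UMI) but no Gpr17, had no UMI of the 5 dividing genes and was not called a doublet. Without it, 2 of 9 genes were higher than in early precursors (median 0.46), Cldn11 among them, and 7 of 10 higher than in primed cells, with 0 lower in both.

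Cldn11 kept its call over early precursors without that cell. Cldn11, the tight junction protein of myelin, had 156 and 191 CPM by set in committed precursors (167 CPM over both, 143 to 193), against 70.7 and 24.9 CPM by set in early precursors and 22.6 CPM in primed cells. Its log2 ratio over early precursors was 1.51, and 1.16 without the richest cell, when set 2 stood at 66.3 CPM. Collagen-rich cells also express Cldn11, and 82 committed precursors (28.9%) carried it, against 19 early precursors.

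Cnp, an enzyme made early in myelin formation, was found in 223 of 284 committed precursors (78.5%). It had 545 and 778 CPM by set in committed precursors, against 363 and 492 CPM in early precursors and 228 CPM in primed cells. Its log2 ratio of 0.59 over early precursors only just passed the fold and was 0.51 without the richest cell and 0.56 without the cells called doublets, so the call was lost in both. Over primed cells it was 1.41 with that cell and 1.33 without it. Cnp UMIs were also found in 44.4% of Gfap-rich cells without a lineage factor UMI (median 3362 UMIs).

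Mbp, a main protein of compact myelin, differed widely between the sets. It had 48.9 CPM in set 1 and 350.0 CPM in set 2 in committed precursors, against 28.9 and 24.9 CPM in early precursors. Without the richest cell set 2 had 18.9 CPM of Mbp, the log2 ratio over early precursors was 0.46 in place of 2.16, and that call was lost. Mbp UMIs were seen in 26 committed precursors, 23 of which had Bcas1 and 8 Gpr17. An Mbp UMI was found in 9.15% of committed precursors (6.07 to 13.1%), against 2.46% of the same Gfap-rich cells. Early precursors had one in 7.75% (3.78 to 13.8%), an interval that overlaps that of committed precursors.

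**Figure D3:**
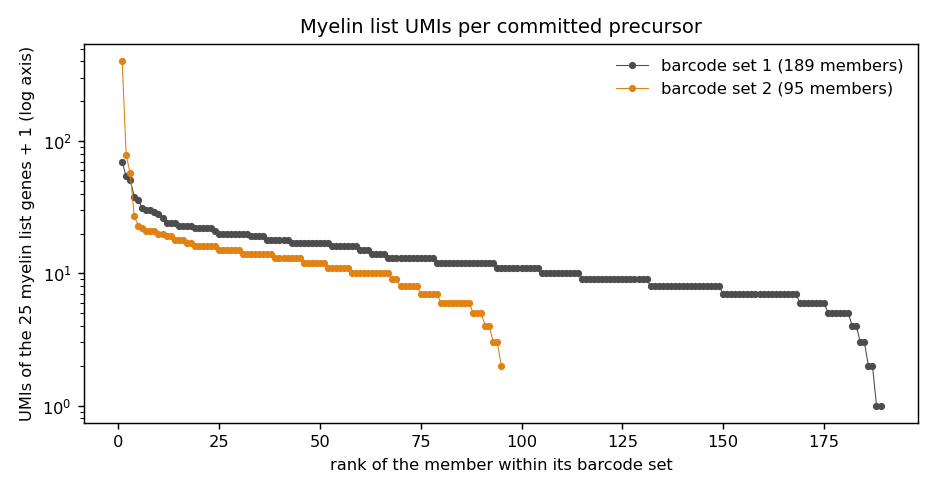
UMIs of the myelin list plus 1 (y axis, log scale) in each committed precursor, ranked from highest to lowest (x axis) in barcode set 1 and barcode set 2. The cell at 401 UMIs in set 2 stands above all others, of which the highest has 77.

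Outside that cell the myelin genes of mature oligodendrocytes were almost absent. Mag UMIs were found in 3 committed precursors, Mobp UMIs in 2, and Mog UMIs in 1. Myrf, the factor that drives the myelin programme, was found in 11 committed precursors at 8.16 and 28.1 CPM by set and in 0 early precursors and 0 primed cells. Taking 3 UMIs over the group as the limit of a count of 0, the Myrf ratio came to 2.23 over early precursors and 20.3 over primed cells. Counting error in the 15 Myrf UMIs of committed precursors is left out, so neither ratio is a firm lower bound. Of the 11 cells, 8 had Gpr17 and 10 had Bcas1. Tspan2, a tetraspanin of forming oligodendrocytes, was found in 18 committed precursors at 13.6 and 31.2 CPM by set and in 0 early precursors. By the same limit its ratio was 2.98, with counting error in its 20 UMIs left out.

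Some myelin list genes met no call over early precursors but were higher than in primed cells. Pllp (plasmolipin, a membrane protein of myelin) had 233 CPM in committed precursors (220 and 262 by set), 182 CPM in early precursors and 41.5 CPM in primed cells, with log2 ratios of 0.35 and 2.36. Enpp2 (autotaxin, which makes lysophosphatidic acid) had 103, 89.1 and 27.7 CPM in the same order. Ugt8a, the first enzyme of galactolipid synthesis, had 25.6, 14.8 and 3.26 CPM, with log2 ratios of 0.62 over early precursors, opposite in the 2 sets, and 1.89 over primed cells. Cd9 and Plekhb1, which many glia express, met no call against any group. The members held 3877 myelin list UMIs, a median of 11 per cell, and only 2 cells had none. Of these UMIs, 1670 were of Cd9 and 452 of Plekhb1. The list summed to 3673 CPM in committed precursors, 2570 CPM in early precursors, 2392 CPM in primed cells and 2131 CPM in all other kept cells. UMIs of the list are thus not particular to committed precursors.

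Committed precursors still carried genes of early precursors. Pdgfra or Cspg4 UMIs were found in 115 of the 284 (40.5%, 34.7 to 46.5%), Pdgfra at 89.1 CPM and Cspg4 at 64.4 CPM. Early precursors, which were chosen by these 2 genes, had 193 and 131 CPM, and primed cells 0 by construction. Of the other genes of the early precursor list, 0 of 16 were higher and 2 lower (C1ql1 and Ncan) in committed than in early precursors, with a median log2 ratio of -0.11. Over primed cells 7 of 17 were higher and the same 2 lower, with a median of 0.45.

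Lhfpl3, a tetraspan membrane protein used as a precursor marker, had 219 and 209 CPM by set in committed precursors, 216 CPM over both, against 191 CPM in early precursors and 51.0 CPM in primed cells. Cacng4, a subunit of AMPA receptors, had 228, 246 and 73.1 CPM, and Tnr, the matrix glycoprotein tenascin-R, 100.4, 74.2 and 37.7 CPM in the same order. Sox6, which holds precursors in an immature state, had 147, 110.3 and 65.2 CPM. Ncan, the proteoglycan neurocan, was lower, with 162 and 119 CPM by set in committed precursors, against 252 CPM in early precursors and 409 CPM in primed cells (log2 ratios of -0.74 and -1.43). Ptprz1, a phosphatase of glial precursors, met no call over early precursors or primed cells, with 671, 732 and 553 CPM.

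Id1, Nfia and Sox9 were the lineage factors lower in committed than in early precursors. Of 21 measured lineage factors other than Olig1, Olig2 and Sox10, 0 were higher and 3 lower in that comparison, beside 4.75% and 6.32% of all measured genes. Over primed cells 5 of 25 were higher (Nkx2-2, Sox3, Sox8, Tcf12 and Zeb2) and 8 lower (Hey1, Id1, Id2, Id3, Id4, Nfia, Nkx6-2 and Sox9), beside 6.94% and 14.2% of all measured genes. Id1, which blocks basic helix-loop-helix factors such as Olig2, had 113 and 78.1 CPM by set in committed precursors (102 CPM over both), against 201 CPM in early precursors and 297 CPM in primed cells. Its log2 ratios were -0.94 and -1.49. Id3 had 179, 248 and 497 CPM in the same order and passed the fold over primed cells only.

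Sox9 and Nfia, which act in glial progenitors and astrocytes, were lower too. Sox9 had 135 and 106 CPM by set in committed precursors, against 199 CPM in early precursors and 359 CPM in primed cells, log2 ratios of -0.64 and -1.47. Nfia had 163, 288 and 304 CPM. Sox8, a relative of Sox10 in the lineage, had 116 CPM in committed precursors (129 and 84.4 by set), 86.9 CPM in early precursors and 48.0 CPM in primed cells. Nkx2-2, a factor of precursor differentiation, had 19.9, 29.7 and 7.22 CPM. Zfp488, a zinc finger protein of the oligodendrocyte lineage, was seen in 11 committed precursors at 10.4 CPM, against 8.48 CPM in early precursors and 1 UMI in primed cells, a CPM ratio of 44.8 over primed cells with a counting interval of 6.50 to 1926.

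Hedgehog pathway genes are of interest because the study's title names Gli2, a transcription factor of that pathway. Gli2 UMIs were found in 2 of the 284 committed precursors, or 1.89 CPM. Early precursors had 2.12 CPM, primed cells 5.36 CPM and all other kept cells 4.80 CPM. Gli2 had too few UMIs to be measured against early precursors or primed cells, and met no call over all other kept cells. Gli1, another target and effector, had 0 UMIs in committed precursors, as did Shh, Dhh and Hhip. A count of 0 in these cells allows up to 2.84 CPM, so low expression was not detectable. Ptch1, the Hedgehog receptor and a target of the pathway, had 13.3 CPM, against 12.7, 14.4 and 13.0 CPM in early precursors, primed cells and all other kept cells. It met no call over primed cells or all other kept cells, and had too few UMIs to be measured against early precursors.

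Of the 3 Hedgehog list genes measured against early precursors, 0 were higher and 1 lower (Smo), and against primed cells 1 of 12 was higher (Ccnd1) and 6 lower (Ccnd2, Cdon, Gas1, Gli3, Mycn and Smo). Smo, which carries the signal across the membrane, had 17.7 and 15.6 CPM by set in committed precursors (17.1 CPM, 10.1 to 27.0, 17 cells), against 35.4 and 56.1 CPM in early precursors (42.4 CPM, 25.9 to 65.5, 20 cells) and 30.04 CPM in primed cells. The log2 ratios were -1.10 and -0.67. Over all other kept cells Smo had a log2 ratio of -0.48 and was not called.

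Ccnd1, the cyclin that starts the cell cycle and a Hedgehog and mitogen target, marked committed and early precursors together. It had 844 and 534 CPM by set in committed precursors, against 710.3 and 511 CPM in early precursors, 179 CPM in primed cells and 94.2 CPM in all other kept cells. The log2 ratios were 0.22, 2.04 and 2.93. Ccnd2, the related cyclin of neural progenitors, had 601 CPM in committed precursors, 626 CPM in early precursors, 1008 CPM in primed cells and 1679 CPM in all other kept cells.

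Receptors of growth and guidance signals were more often lower than higher. Of 12 measured receptors and ligands, 0 were higher and 3 lower (Egfr, Igf1r and Sema6a) than in early precursors, and of 19 measured against primed cells 2 were higher (Sema5a and Tgfa) and 10 lower. All measured genes were also more often lower than higher, at 6.32% and 4.75% against early precursors and 14.2% and 6.94% against primed cells. Egfr, the receptor of the withdrawn EGF, had 19.0 and 15.6 CPM by set in committed precursors, against 54.6 and 74.8 CPM in early precursors and 56.1 CPM in primed cells, log2 ratios of -1.53 and -1.41. Egfr, Sema6a, Sema5a and Tgfa were named after their values were seen. Igf1r had a log2 ratio of -0.60 over early precursors, and of 0.72 when cells were thinned to 2000 UMIs, so its direction is not firm. Of 5 measured Notch, BMP and Wnt genes 0 were higher and 2 lower than in early precursors (Bmpr1a and Notch1), and of 10 measured against primed cells 0 were higher and 6 lower. Bmpr1a was named after its values were seen.

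Opcml, a cell adhesion molecule of the immunoglobulin superfamily, had the largest log2 ratio over primed cells among called genes with at least 100 UMIs. It had 77.5 and 93.7 CPM by set in committed precursors (82.4 CPM, 66.0 to 102, 63 cells), against 22.5 and 24.9 CPM in early precursors (23.3 CPM, 11.6 to 41.7), 6.99 CPM in primed cells and 4.25 CPM in all other kept cells. The log2 ratios were 1.63, 2.87 and 3.24, and both sets lay well apart from early precursors. Dscam, another adhesion molecule of neurons and glia, had 62.5, 42.4 and 9.31 CPM in committed precursors, early precursors and primed cells, and Omg, the oligodendrocyte myelin glycoprotein, 44.5, 38.2 and 9.08 CPM. Both were called over primed cells and not over early precursors. Over the adhesion list 2 of 17 were higher and 3 lower than in early precursors, beside 4.75% and 6.32% of all measured genes. Against primed cells 3 of 20 were higher and 7 lower, beside 6.94% and 14.2%.

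Genes of process outgrowth and of synaptic input to precursors gave few calls over early precursors. Of 25 measured cytoskeleton genes, 3 were higher (Map1b, Tubb4a and Wasf1) and 0 lower than in early precursors, beside 4.75% and 6.32% of all measured genes. Against primed cells 6 were higher and 2 lower, beside 6.94% and 14.2%. Tubb4a, the tubulin of myelinating cells, had 34.0 and 62.5 CPM by set in committed precursors, against 25.7 and 18.7 CPM in early precursors and 8.15 CPM in primed cells. Tubb2b had 1035 CPM in committed precursors and 521 CPM in primed cells, a log2 ratio of 0.98 over primed cells and of 0.12 over early precursors. Gria2, a subunit of AMPA receptors, had 100.4, 76.3 and 38.2 CPM in committed precursors, early precursors and primed cells. Tubb4a, Map1b and Wasf1 were named after their values were seen.

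Lipid genes split by pathway against primed cells. Myelin needs much cholesterol, and of 22 measured cholesterol synthesis genes 6 were higher (Acat2, Cyp51, Fdps, Idi1, Lss and Mvd) and 0 lower than in primed cells, with a median log2 ratio of 0.42. Against early precursors 2 of 15 were higher (Fdft1 and Idi1) and 0 lower, with a median of 0.24. Fdps, the farnesyl diphosphate synthase, had 177 and 103 CPM by set in committed precursors, against 141 and 87.3 CPM in early precursors and 80.1 CPM in primed cells. Acat2, of the first step, had 82.4, 102 and 41.9 CPM, and Hmgcs1, of the next, had 121, 115 and 116 CPM in the same order. Of the genes given here with a direction, Fdft1, Idi1, Cyp51, Lss and Mvd were named after their values were seen.

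Targets of LXR, the nuclear receptor that oxysterols activate, were lower than in primed cells for 7 of 9 measured genes, and 1 was higher (Apod, in 3 cells), with a median of -0.88. Against early precursors 0 of 8 were higher and 1 lower (Pltp). Abca1, the cholesterol exporter, had 27.2 and 53.1 CPM by set in committed precursors (35.1 CPM over both), against 53.0 CPM in early precursors and 89.0 CPM in primed cells, log2 ratios of -0.53 and -1.23. Srebf1, the regulator of fatty acid synthesis, had 42.6, 59.4 and 83.1 CPM. Apoe, the lipid carrier that astrocytes also make, had 1954, 2797 and 4927 CPM. The astrocyte list moved in the same direction, as given further on, and its part in the LXR values was not tested. Of 15 measured fatty acid genes 3 were higher (Elovl1, Elovl6 and Elovl7) and 8 lower than in primed cells, all 3 named after their values were seen, as were Pltp and Apod, with Fabp5, a fatty acid carrier, at 734 CPM in committed precursors and 1275 CPM in primed cells and Scd2, a desaturase, at 498 and 922 CPM.

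**Figure D4:**
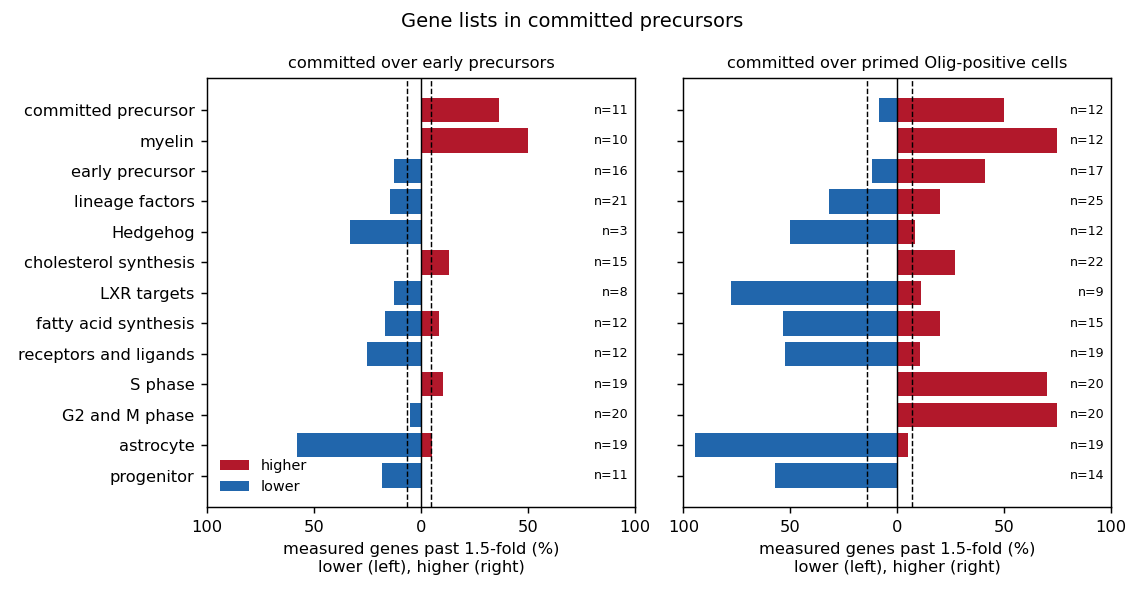
Share of each list's measured genes (n beside the bars) that were lower (left of 0) or higher (right of 0) past 1.5-fold in committed precursors, over early precursors on the left and over primed Olig-positive cells on the right (x axis, %). Dashed lines mark the share of all measured genes called in each direction; the committed precursor and myelin lists reach furthest above the line for higher genes over early precursors, and, of the 13 lists drawn, the astrocyte list furthest above that for lower genes in both panels.

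Many committed precursors carried transcripts of dividing cells. At least 1 UMI of Mki67, Top2a, Cdk1, Ube2c or Cenpf was found in 161 of 284 (56.7%, 50.7 to 62.5%; 58.2% in set 1 and 53.7% in set 2), against 53.5% of early precursors and 34.7% of primed cells. With cells thinned to 2000 UMIs the shares were 51.5% (45.3 to 57.6%; 268 cells), 47.5% (38.4 to 56.8%; 122 cells) and 29.7% (27.1 to 32.5%; 1147 cells). In the cell types at hand the unthinned share ran from 17.7% in Gfap-rich cells to 83.0% in Dlx-rich neuroblasts, with median depths of 3404 and 2885.5 UMIs. A UMI of these genes in Gfap-rich cells gives an upper limit of what free RNA could add, and no cycling is read from single UMIs.

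Of 20 measured genes of the G2 and M phase list, 15 were higher and 0 lower than in primed cells (median 0.74), and 0 higher and 1 lower (Kif11) than in early precursors (median -0.04). Top2a, the topoisomerase of dividing cells, had 358 and 344 CPM by set in committed precursors, against 341 CPM in early precursors and 184 CPM in primed cells. Ube2c had 442, 458 and 227 CPM, and Birc5 317, 312 and 154 CPM. Of 20 S phase genes 14 were higher and 0 lower than in primed cells (median 0.68), and 2 of 19 were higher (Mcm4 and Tyms) than in early precursors. With only the 76 cells that had at least 2 UMIs of each kind, 4 of 20 G2 and M phase genes were higher than in primed cells and 5 of 17 lower than in early precursors. The share of all genes called with these 76 cells is not given here, so both counts stand without a background. A dividing gene was found after thinning in 45.2% of these cells and in 45.7% of the 86 cells with 1 UMI of each kind. Kif11, Mcm4 and Tyms were named after their values were seen.

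Cdkn1a (p21), a brake of the cell cycle, had 534 and 528 CPM by set in committed precursors, against 464 CPM in early precursors and 501 CPM in primed cells, and met no call. In the list of cell cycle exit and G1 genes 1 of 13 was higher and 0 lower than in early precursors, beside 4.75% and 6.32% of all measured genes. Against primed cells 3 of 20 were higher and 3 lower, beside 6.94% and 14.2%, so the lower count lies near the share of all genes.

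Most astrocyte genes were lower in committed precursors. Of 19 measured, 11 were lower and 1 higher (S100b) than in early precursors, with a median log2 ratio of -0.61, and 18 were lower and 1 higher (S100b again) than in primed cells, with a median of -1.49. Gfap, the intermediate filament of astrocytes, had 1101 and 662 CPM by set in committed precursors (968 CPM, 910 to 1030), against 2144 and 1832 CPM in early precursors (2038 CPM) and 3303 CPM in primed cells. The log2 ratios were -1.07 and -1.77. Ntsr2, a neurotensin receptor of astrocytes, had 51.7 and 40.6 CPM by set, against 109 and 143 CPM in early precursors and 156 CPM in primed cells. In each set both genes were lower in committed than in early precursors, as the call required.

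Aqp4, the water channel, had 199 CPM in committed precursors, 316 CPM in early precursors and 730.3 CPM in primed cells. Slc1a2, a glutamate transporter, had 113, 216 and 327 CPM, and Mlc1, a membrane protein of astrocyte endfeet, had 152, 288 and 504 CPM in the same order. Igfbp5, which binds insulin-like growth factors, had 250.2 and 147 CPM by set in committed precursors, against 464 CPM in early precursors and 804 CPM in primed cells. S100b, which the lineage also expresses, had 46.4 CPM in committed precursors, 27.6 CPM in early precursors and 23.1 CPM in primed cells, and without the richest myelin cell it was no longer called over early precursors. It was named after its values were seen.

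Summed over the 20 astrocyte genes, committed precursors had 5644 CPM (6325 in set 1 and 4078 in set 2), early precursors 9038, primed cells 16050.1 and all other kept cells 16219, with Gjb6 at 0 in committed precursors. Gfap UMIs were found in 69.0% of committed precursors, a gene that 64.1% of Dlx-rich neuroblasts (median 2885.5 UMIs) also showed, so a Gfap UMI in a committed precursor cannot be told apart from background. The part of free RNA and of doublets in the 5644 CPM was not tested.

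Markers of unrelated types were low. The microglial list summed to 12.3 CPM in committed precursors with 6 of 12 genes at 0 (among them Aif1, Csf1r and Cx3cr1), against 155 CPM in all other kept cells. The fibroblast and mural list, without the collagen genes of the gate, summed to 58.7 CPM with Lum, Pdgfrb and Postn at 0, against 370.4 CPM. The neuroblast list summed to 379 CPM in committed precursors and 926 CPM in all other kept cells, with Dlx6 and Sp8 at 0, and 13 of 16 of its genes were lower and 0 higher. Ependymal genes summed to 125 CPM against 259 CPM, endothelial genes to 29.4 CPM against 26.7 CPM with 5 of 10 at 0, and erythroid genes to 0. Choroid plexus genes summed to 107 CPM against 33.4 CPM, with Ttr among 6 of 10 at 0; most of it was Enpp2, which the lineage expresses.

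Progenitor genes were lower than in primed cells for 8 of 14 measured and higher for 0, and lower than in early precursors for 2 of 11 (Egfr and Slc1a3, the second named after its values were seen). Vim, the filament of progenitors, had 1852 CPM in committed precursors, 2297 CPM in early precursors and 3236 CPM in primed cells. Fabp7, a fatty acid binding protein of radial glia, had 1289, 1523 and 1181 CPM and met no call.

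Outside the lists, the genes with the largest called ratios over early precursors at 100 or more UMIs were of mixed function. Mrpl50, a mitochondrial ribosome protein, had 80.2 and 106 CPM by set in committed precursors, against 48.2 and 24.9 CPM in early precursors, a log2 ratio of 1.04. Sec22b, a vesicle fusion protein, had 85.7 and 78.1 CPM in committed precursors, against 38.6 and 49.9 CPM in early precursors, a log2 ratio of 0.90. Neither was called over primed cells. On the lower side, Scg3, a secretory granule protein, had 81.6 and 116 CPM in committed precursors, against 177 and 224 CPM in early precursors and 215 CPM in primed cells, log2 ratios of -1.03 and -1.19. Idh2, the mitochondrial isocitrate dehydrogenase, had 131 and 65.6 CPM in committed precursors, against 225 and 162 CPM in early precursors. Both were lower in committed than in early precursors in each set, as the call required. Dlx1, a neuroblast factor, had 12.3 CPM in committed precursors, against 95.9 CPM in all other kept cells, and Acta2, the smooth muscle actin, 7.58 CPM against 144 CPM.

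Members were not uniform. The 52 cells with both Gpr17 and Bcas1 were set beside the 83 with Gpr17 alone and the 143 with Bcas1 alone, as a description within the gate. Bmp4 had 125 CPM in cells with both (80.9 to 185), 29.4 CPM with Gpr17 alone (13.4 to 55.8) and 17.1 CPM with Bcas1 alone (7.83 to 32.5). Cnp had 985 CPM (852 to 1132), 428 CPM (358 to 508) and 493 CPM (435 to 557) in that order, and Cldn11 210.0, 105 and 97.1 CPM. Opcml had 175, 62.1 and 59.0 CPM, and Myrf 55.0, 3.27 and 3.81 CPM. The cell richest in myelin UMIs is in none of these 3 patterns.

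Dividing and astrocyte transcripts were lowest in cells with both genes. G2 and M phase genes summed to 1595 CPM in cells with both Gpr17 and Bcas1 (1425 to 1779.8), 3346 CPM with Gpr17 alone and 3856 CPM with Bcas1 alone, beside 3342 CPM in early precursors and 1786 CPM in primed cells. Thinned to 2000 UMIs, a dividing gene was found in 36.7% of cells with both (23.4 to 51.7%), 58.7% with Gpr17 alone (46.7 to 69.9%) and 53.6% with Bcas1 alone (44.9 to 62.1%), and the interval of the first overlaps both others. The astrocyte list summed to 4209.6, 5729 and 6268 CPM. Smo had 1 UMI in cells with both (5.0 CPM), 22.9 CPM with Gpr17 alone and 17.1 CPM with Bcas1 alone. With 1 UMI the Smo level in cells with both is too uncertain to rank. Ccnd1 had 695, 771 and 789.9 CPM. S phase genes had 1765, 1755 and 1976 CPM.

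**Figure D5:**
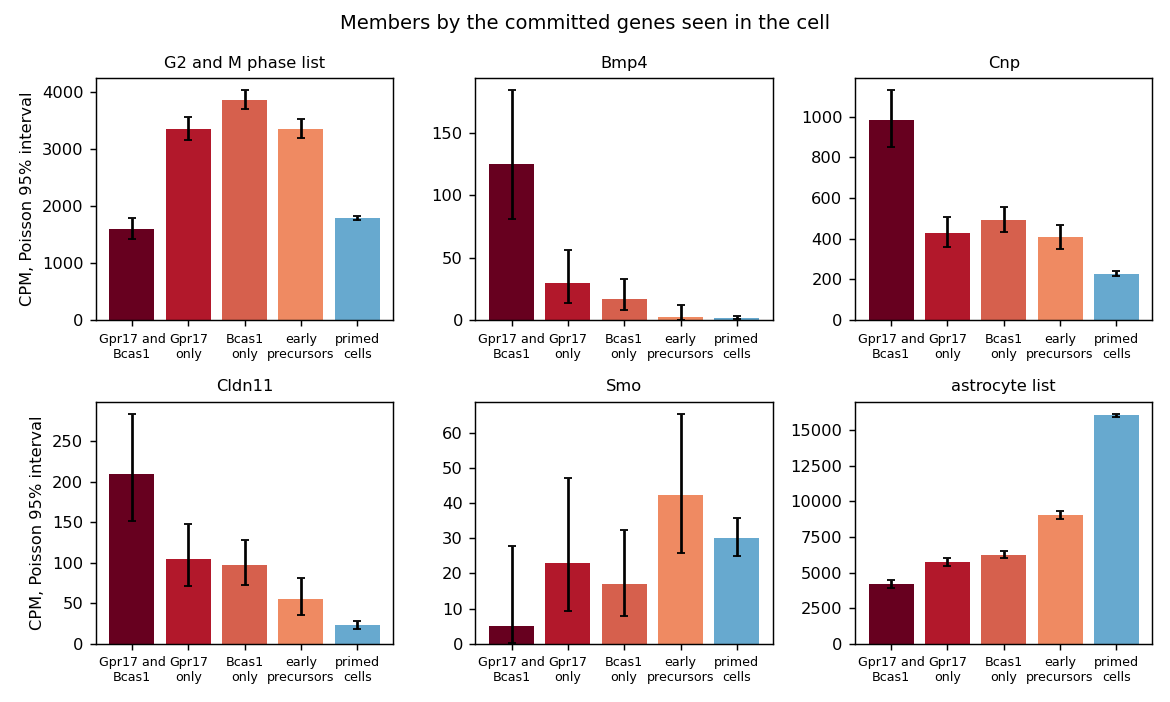
CPM (y axis) of the G2 and M phase list, Bmp4, Cnp, Cldn11, Smo and the astrocyte list in committed precursors with Gpr17 and Bcas1, with Gpr17 only and with Bcas1 only, in early precursors and in primed Olig-positive cells. Bars are summed levels and error bars exact Poisson 95% intervals; Bmp4, Cnp and Cldn11 are highest, and the astrocyte list and G2 and M phase list lowest, in cells with both genes.

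The number of committed UMIs separated the same genes. Bmp4 had 151 CPM in the 51 cells with 3 or more committed UMIs and 16.4 CPM in the 170 with 1, Cnp 1151 and 436 CPM, and Myrf 58.3 and 3.29 CPM. Without the richest cell the Cnp level in the first group was 978 CPM. The astrocyte list had 4241 CPM with 3 or more committed UMIs and 6752 CPM with 1. Smo had no UMI among the 205827 UMIs of the cells with 3 or more, and 24.7 CPM with 1. A count of 0 was taken to allow 3 UMIs over a group, so low Smo levels there were not detectable. Median depths were 3778 and 3301.5 UMIs, and the part of depth in these differences was not tested.

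Cells with 1 UMI of each kind stood apart from those with at least 2 of each. The 76 cells with at least 2 of each had 4754 CPM of the astrocyte list and the 86 cells with 1 of each 9000 CPM (8668 to 9341), which is close to the 9038 CPM of early precursors. Gfap had 918 and 1595 CPM, Ccnd1 720.0 and 455 CPM and Cnp 858 and 435 CPM in the same order, and Sox10, a gate gene, 145 and 42.2 CPM. Of the members called doublets, 0 were among the 76 and 5 among the 86, and the part of doublets in these differences was not tested. Restricted to the 76 cells, 11 of 14 astrocyte genes were still lower than in early precursors and 18 of 19 lower than in primed cells, 5 of 7 committed list genes and 5 of 8 myelin genes were higher than in early precursors, and none of those 2 lists was lower. Shares of all genes called in these 2 comparisons with the 76 cells are not given here. Over all other kept cells, calls of higher and lower genes rose from 669 and 1523 to 1046 and 2588. Calls of all genes over early precursors and primed cells are not among the counts that moved with the 76 cells, as listed further on. The rise over all other kept cells therefore cannot stand for these 2 comparisons. The richest myelin cell is among the 76.

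The 10 Enpp6 cells held 666 of the 3877 myelin list UMIs, 401 of them in the richest cell. Their myelin list summed to 15620 CPM, or 6740 CPM without the richest cell, and Cnp to 2439 CPM, or 1653 CPM without it. Bmp4 had 352 CPM in 5 of the 10 cells, Pllp 610 CPM and Ccnd1 93.8 CPM (25.6 to 240), below the 750.4 CPM of all members. Pdgfra or Cspg4 UMIs were found in 1 of the 10 and dividing genes in 4. With 10 cells these levels describe those cells only.

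Committed precursors with and without Pdgfra or Cspg4 UMIs also differed. The 115 cells with either had 4447 CPM of the G2 and M phase list, 990 CPM of Ccnd1, 22.3 CPM of Bmp4 and 4037 CPM of the astrocyte list. The 169 cells without had 2379, 573, 56.0 and 6832 CPM. Dividing genes were found after thinning in 56.3% with either gene (46.6 to 65.6%) and in 48.1% without (40.0 to 56.2%), with overlapping intervals.

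The barcode sets differed in the share of committed precursors and less so within the lineage. They were 1.92% of kept cells in set 1 (1.65 to 2.21%, 189 cells) and 2.79% in set 2 (2.26 to 3.40%, 95 cells). Early precursors and primed cells were also a larger share of set 2, at 1.38% and 11.7%, than of set 1, at 0.831% and 8.97%. Among cells with a lineage factor UMI committed precursors were 16.3% in set 1 (14.3 to 18.6%) and 17.6% in set 2 (14.4 to 21.0%), intervals that overlap. As no set carries a condition, this says nothing about 20HC.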

How the data were processed

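The authors deposited 1 pooled matrix of whole UMI counts per gene and barcode from droplet libraries made with version 1 chemistry of the 10x Genomics 3′ assay, per the labels' protocols. Reads were processed with Cell Ranger 2.1.1 on mm10, per the submitters' processing notes. Whether depth was equalised between libraries and which strand was counted are not given in the sources used here. From these counts, 13278 barcodes with at least 500 genes and at most 10% mitochondrial UMIs were kept. Counts were summed per group into CPM with exact Poisson 95% intervals, and shares have exact Clopper-Pearson 95% intervals. Log2 ratios used CPM + 5. A gene was measured from 30 UMIs over both groups and called past 1.5-fold with 1 direction in both barcode sets. No test was possible with 1 pooled sample. A count of 0 was taken to allow 3 UMIs over the group. Scrublet (scanpy 1.11.5, 0.8% expected per 1000 cells) called doublets within each set. Thinning to 2000 UMIs used 1 random draw.

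Genes were named by a rule: the gate genes; in each comparison the 10 largest and 10 smallest ratios among called genes with at least 100 UMIs; all detected genes of the committed precursor, early precursor, myelin, lineage factor and Hedgehog lists; and, for every other list, the 4 genes with the highest UMI totals. Others were named after their values were seen, as the text says. Members and lists were chosen with earlier results of these data known. Dlx-rich, Gfap-rich and collagen-rich cells were gated by UMIs of their own marker genes. Positions are from GENCODE M21 (28339 of 28692 gene IDs, 98.8%, found). Levels and calls were made per matrix line, so the 67 lines that repeat an earlier symbol were not summed. Symbols on more than 1 line were left out of the largest and smallest ratios. Software was Python 3.11.15, numpy 2.4.6, scipy 1.17.1, pandas 2.3.3 and matplotlib 3.10.9, and the counting of calls was tested on simulated data. Some genes counted in the lists are not reported here.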

Additional observations from a re-analysis of the deposited data

How the results depend on the processing

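No paired analysis was possible because neither barcode set is tied to a labelled replicate. The share of kept cells that were committed precursors was 0.859% with 2 or more committed UMIs, 1.21% with 2 or more lineage factor UMIs, 1.32% after thinning to 2000 UMIs and 2.79% in barcode set 2 alone, against 2.14%. Counts of genes higher and lower over early precursors were 40 and 58 with at least 100 UMIs, 1122 and 1083 with no UMI minimum and 52 and 44 at 2-fold, and 228 were lower in set 2 alone, against 273 and 363. Over primed cells they were 403 and 838 with at least 100 UMIs and 176 and 424 at 2-fold, against 675 and 1380. Over all other kept cells they were 1082 and 2891 with CPM + 1, 441 and 901 with CPM + 10, 217 and 426 at 2-fold, 1098 and 2380 without dividing cells, 1020 and 2551 in set 2 alone and 1046 and 2588 with 2 or more UMIs of each kind, and 2387 were lower with 2 or more committed UMIs, against 669 and 1523. Directions turned for Igf1r over early precursors on thinning (0.72), for Lyz2 (0.20) and Sox3 (-0.027) over primed cells and Mycn (0.083) and Tubb3 (0.027) over other cells without dividing cells, for Etv5 over other cells without members that had Pdgfra or Cspg4 (-0.011), and for Rlbp1 (-0.042) and Cenpf (-0.34) over primed cells with 2 or more UMIs of each kind; the causes were not tested. Of the remaining values, 89 shares or counts of genes held, as did 7532 other values, gene ratios among them, and 1737 other values moved. A turn was marked only for a gene called with the settings used above. Both counts of other values can therefore hold uncalled genes or list medians whose direction turned. The alternatives without the richest myelin cell and with 2 or more UMIs of each kind were chosen after seeing the data. Single-UMI gating and the 471557 UMIs of early precursors set the precision.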

Other observations

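Asns and Psat1, of amino acid synthesis, are given as single genes, with no list behind them other than the one given for Asns. Asns, the asparagine synthetase, had 70.7 CPM in barcode set 1 and 75.0 CPM in set 2 in committed precursors, against 41.8 and 43.6 CPM in early precursors, 29.6 CPM in primed cells and 37.4 CPM in all other kept cells. Its log2 ratios were 0.70, 1.16 and 0.86. Psat1, an enzyme of serine synthesis, had 117 and 112 CPM by set in committed precursors, against 64.3 and 43.6 CPM in early precursors, 75.2 CPM in primed cells and 72.1 CPM in all other kept cells. For both genes committed precursors were higher than early precursors in each set, as the call required. Over the hypoxia and stress list that holds Asns, 1 of 9 measured genes was higher and 0 lower than in early precursors, beside 4.75% and 6.32% of all measured genes. Against primed cells 1 of 15 was higher and 2 lower, near the 6.94% and 14.2% of all measured genes.

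Immediate early genes, which handling can switch on, gave 0 higher and 0 lower of 7 over early precursors, beside 4.75% and 6.32% of all measured genes. They gave 0 higher and 3 lower of 11 over primed cells, beside 6.94% and 14.2%. Egr1, a factor of this group, had 143 CPM in committed precursors, 138 CPM in early precursors, 100.1 CPM in primed cells and 77.3 CPM in all other kept cells. Sh3bp4, an adaptor of receptor uptake, had 85.7 and 75.0 CPM by set in committed precursors, against 32.1 and 62.3 CPM in early precursors and 31.2 CPM in primed cells. Ccdc80, a secreted matrix protein, had 18.9 CPM in committed precursors, 65.7 CPM in early precursors and 98.5 CPM in primed cells.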
